A study of Brassica rapa with 12 samples.

Results

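Of the 47249 Brassica rapa genes counted, 537 carry an ID that starts with BraAnn and names none of the chromosomes A01 to A10. These unplaced genes are described here through the 108 of them that had enough reads to be tested, among 28846 tested genes in all. The other 28738 tested genes, whose IDs name a chromosome, are called placed genes. A gene was tested if it passed edgeR's filterByExpr over the 4 groups, which in these data asks for about 0.211 CPM (counts scaled by library size) in at least 3 libraries. BraAnng004660.3.5C passed with 0.231 CPM in its third-highest library, and BraAnng000920.3.5C, with 0.210 CPM there, did not.

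A genome assembly leaves genes unplaced when the piece of sequence that holds them could not be joined to a chromosome map. Such pieces are commonly short, rich in repeats, or close copies of sequence found elsewhere, which is frequent in Brassica rapa because its ancestors multiplied their whole genome. Reads from close copies may be split between them or left uncounted. In plants, heat sets off a fast transcriptional response in which heat shock factors switch on genes for chaperones, proteins that keep others folded. GIGANTEA belongs to the plant circadian clock and takes part in timing flowering by day length. The gene table at hand paired none of the IDs with a name, so no function is given for any gene below, and GIGANTEA's own transcript was not analysed here.

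Libraries were made from whole seedlings of the Chinese cabbage cultivar Chiifu, 2 weeks old, with 3 libraries in each of 4 groups. Wild-type plants stayed at 22 °C or were held at 37 °C for 1 h, and plants edited in GIGANTEA (gi) were handled in the same ways. The labels give gi plants as late and wild-type plants as early flowering, without the allele or the number of edited lines. The libraries held 36778289 to 57777477 counts in genes, and 3 counts, the floor used for a gene with none, stood for 0.0377 to 0.0964 CPM.

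Some libraries differed from their group in more of the unplaced than of the placed genes. In gi at 22 °C replicate 1, 23 of 108 unplaced genes (21.3%) lay at least 2-fold above both other libraries of the group, against 3.46% of placed genes. In wild type at 37 °C replicate 3, 21 (19.4%) lay at least 2-fold below both others, against 3.92% of placed genes. Wild type at 37 °C replicate 2 had 15 (13.9%) above both others, against 3.01%. Other libraries had such an excess too, though not all. The shares above both others were 11.1% against 1.46% in wild type at 22 °C replicate 2, and 9.26% against 9.81% in its replicate 1. All were kept. The placed genes here are those of all levels, while the unplaced genes were mostly read at lower ones, as given below. The parts of level and of library quality in these differences were not tested.

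A larger share of unplaced than of placed IDs had no reads. No read in any library was counted for 203 of the 537 IDs (37.8%), against 18.1% of placed IDs, for which the share per chromosome ran from 16.3% on A10 to 20.4% on A04. The filter passed 20.1% of unplaced IDs and 61.5% of placed ones, with 57.3% on A02 as the lowest chromosome. The 226 unplaced genes with reads that failed the filter had a median of 6 counts over all 12 libraries and at most 156. Nearly all unplaced counts, 99.7%, therefore belonged to the 108 tested genes.

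The tested unplaced genes also had fewer reads each. Their median level was 0.908 CPM, against 8.32 CPM for placed genes, and 55 of them (50.9%) averaged under 1 CPM, against 18.7% of placed genes. Another 37 averaged 1 to 10 CPM, 12 averaged 10 to 100 CPM and 4 averaged over 100 CPM. CPM is not scaled by gene length, which the files do not give, so these are reads per gene and not transcripts per gene. Replicates spread a little more: the median within-group SD of log2 CPM was 0.716, against 0.647 for placed genes of the same level and 0.406 for all placed genes. "Placed genes of the same level" here and below means all placed genes, weighted over 20 bins of mean level so that each bin counts as it does among the unplaced genes. It is a description, with no test.

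**Figure D1:**
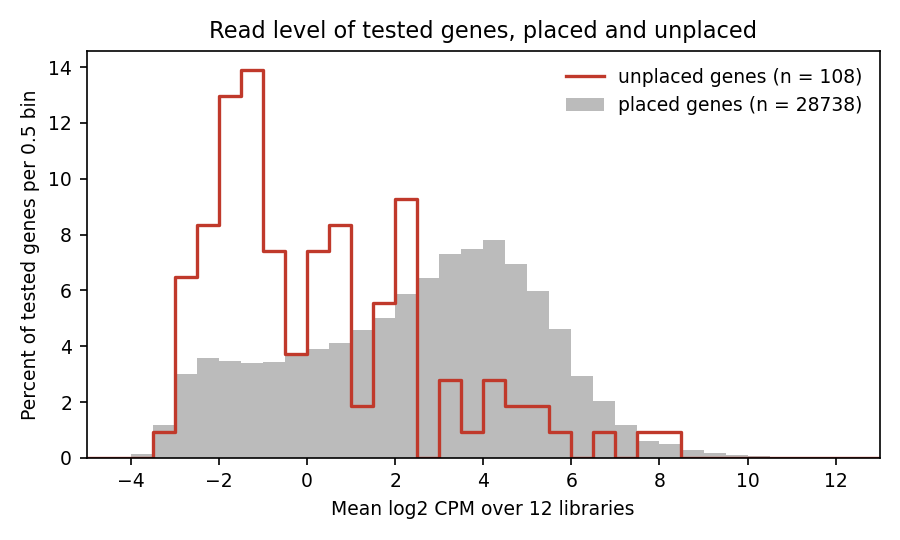
Mean log2 CPM over 12 libraries (x axis) of the tested genes, as the percent of genes in each bin (y axis), with grey bars for 28738 placed genes and a red line for 108 unplaced genes. The unplaced genes gather below 0 on the log2 scale, and only a few reach the levels where most placed genes lie.

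Of the 5 unplaced genes with the highest mean level, heat raised 3 in both genotypes. BraAnng003400.3.5C, the first, was nearly silent at 22 °C and is described with the heat response. BraAnng003320.3.5C had 318.6, 320.1 and 227.5 CPM in wild type at 22 °C, 308, 305 and 396 CPM at 37 °C, 482, 384 and 421 CPM in gi at 22 °C, and 396, 358 and 333.5 CPM in gi at 37 °C. It was read at a high level in every library. Neither heat contrast was called for it (log2 changes of 0.22, SE 0.21, in wild type and -0.24, SE 0.21, in gi; edgeR adjusted p = 0.440 and 0.410). BraAnng004690.3.5C was at 53.0 ± 14.6 CPM (SD, n = 3), 49.7 ± 3.85, 48.8 ± 4.93 and 49.7 ± 6.38 CPM in wild type at 22 °C and 37 °C and gi at 22 °C and 37 °C. Its 4 genotype and heat differences lay between -0.12 and 0.03 on the log2 scale, each with SE 0.19.

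BraAnng000600.3.5C had 227, 82.15 and 97.9 CPM in wild type at 22 °C and 302, 266 and 331 CPM at 37 °C, with no overlap. In gi it had 165, 152 and 255 CPM at 22 °C and 526, 347 and 359.9 CPM at 37 °C. It rose by 1.14 (SE 0.38) and 1.11 (SE 0.38) on the log2 scale (edgeR adjusted p = 0.0370 and 0.0459). BraAnng003410.3.5C, next to BraAnng003400.3.5C by its ID, had 64.9, 68.85 and 71.05 CPM in wild type at 22 °C and 147.5, 124 and 128 CPM at 37 °C. Its level in gi was 60.9, 69.1 and 75.9 CPM at 22 °C and 186, 139 and 126 CPM at 37 °C, with no overlap between temperatures in either genotype (log2 changes of 0.96, SE 0.18, and 1.13, SE 0.18; edgeR adjusted p = 0.00225 and 0.000906).

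The heat contrasts compare plants after 1 h at 37 °C with plants left at 22 °C, within each genotype. In wild type, heat raised 22 of the 108 unplaced genes (20.4%) and lowered 3 (2.78%) at an edgeR adjusted p under 0.05. Over all tested genes 18.2% were raised and 16.5% lowered. Of placed genes of the same level as the unplaced ones, 10.3% were raised and 15.8% lowered. The median log2 change was 0.31 for the unplaced genes, -0.11 for all tested genes and -0.41 for placed genes of the same level. A log2 change above 0 was found for 63 unplaced genes (58.3%), against 37.0% of placed genes of the same level. Leaving out 1 library at a time gave 15 to 23 raised and 2 to 4 lowered, and moved the median by over 1.5 times without wild type at 22 °C replicate 1 (0.51) or wild type at 37 °C replicate 3 (0.52), and the other way to 0.21 without wild type at 22 °C replicate 3 or at 37 °C replicate 1. With no filter on low counts the median was 0.07.

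The counts were the same in gi: heat raised 22 unplaced genes (20.4%) and lowered 3 (2.78%), where 16.2% of all tested genes were raised and 14.2% lowered. For placed genes of the same level the shares were 11.1% and 10.6%. The median log2 change was 0.45 for the unplaced genes, -0.07 for all tested genes and -0.14 for placed genes of the same level. Of the unplaced genes, 69 (63.9%) had a log2 change above 0, against 44.3% of placed genes of the same level. No test was made of these differences between lists. Without gi at 22 °C replicate 2, 14 unplaced genes were raised and 1 lowered in gi, while dropping wild type at 22 °C replicate 1 gave 26 and 5. The median in gi became 0.89 when its unheated replicate 1 was dropped, 0.20 when its heated replicate 1 was dropped, and 0.19 with no filter on low counts.

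The balance of rises and falls depends on how libraries are scaled. With total counts in place of TMM scaling, heat in wild type raised 10 and lowered 21 unplaced genes, against 7.18% and 54.9% of all tested genes. In gi it raised 13 and lowered 11, against 8.74% and 38.4%. That scaling moved the median log2 change of all genes to -1.05 in wild type and -0.68 in gi, and that of the unplaced genes to -0.64 and -0.14.

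**Figure D2:**
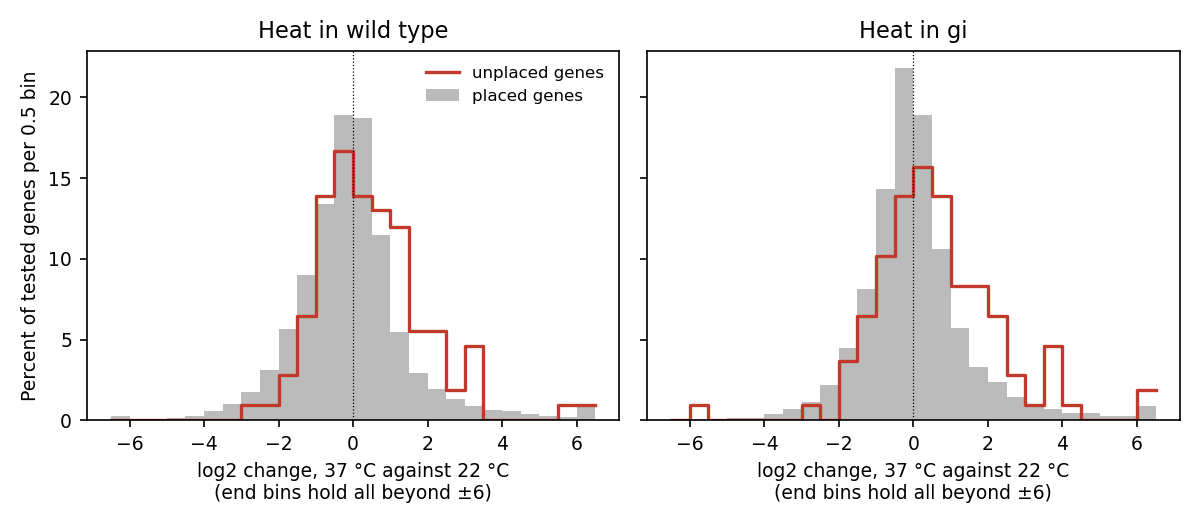
Distribution of the log2 change by heat (x axis, 37 °C against 22 °C, end bins holding all values beyond 6 either way) in wild type and in gi, as the percent of genes per bin (y axis); grey bars are placed genes and the red line is the 108 unplaced genes. In both genotypes the red line lies above the bars between 1 and 3 and below most of them left of -1, with medians of 0.31 and 0.45 against -0.11 and -0.07 for all genes.

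Heat called 19 unplaced genes (17.6%) higher and 1 (0.926%) lower in both genotypes, where 12.7% of all tested genes were higher and 8.96% lower in both. The 19 are 86.4% of those raised in wild type and 86.4% of those raised in gi. The like shares over all tested genes were 69.9% and 78.2%. None was called in opposite directions. Another 3 were called higher in wild type alone, 3 higher in gi alone, and 2 lower in each genotype alone. Of these 10 genes, 9 had the same sign in the other genotype. The 2 heat contrasts share no library, and 77.8% of unplaced genes had the same sign in both, as did 78.0% of all tested genes.

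Levels of the 19 genes ranged widely, with 6 averaging at least 10 CPM and 9 under 1 CPM. Their log2 changes ran from 0.96 to 4.13, leaving aside BraAnng003400.3.5C and BraAnng005250.3.5C, and 12 rose at least 4-fold in both genotypes.

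**Figure D3:**
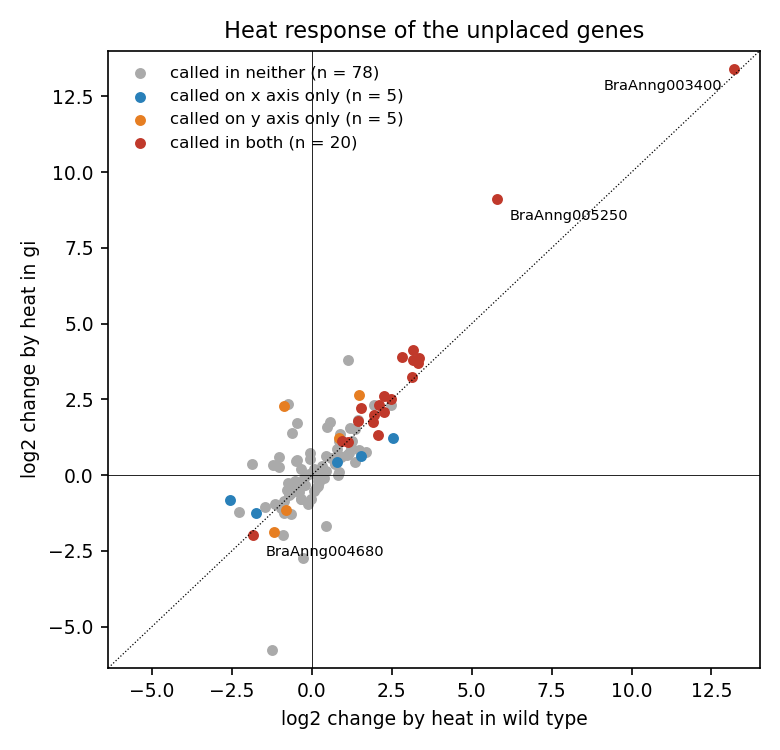
Log2 change by heat in wild type (x axis) against gi (y axis) for the 108 unplaced genes, coloured by which contrast called them; the dotted line marks equal change. Most of the 20 genes called in both lie near the line, BraAnng003400 far up at 13.22 and 13.41. BraAnng005250 lies off it at 5.8 and 9.1, and most of the 78 genes called in neither cluster around 0.

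BraAnng003400.3.5C carried most of the heat response in reads. It had 0.414, 0.122 and 0.201 CPM in wild type at 22 °C and 2639, 2353 and 1983 CPM at 37 °C. In gi it had 0.426, 0.0513 and 0.140 CPM at 22 °C and 2945, 2085 and 1720 CPM at 37 °C. It was thus close to undetected in the 6 unheated libraries and the most read unplaced gene in the 6 heated ones. Its log2 change was 13.22 (SE 0.84) in wild type and 13.41 (SE 0.85) in gi (edgeR adjusted p = 1.15e-06 and 1.39e-06), and it was called under all 19 other settings in each genotype, with log2 changes of 12.29 to 13.75 and 12.77 to 14.49.

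This gene set the share of all reads that fell in unplaced genes. In wild type the 537 unplaced genes took 0.125%, 0.121% and 0.106% of counts at 22 °C and 0.259%, 0.287% and 0.244% at 37 °C. In gi they took 0.147%, 0.112% and 0.139% at 22 °C and 0.326%, 0.298% and 0.278% at 37 °C. The heated libraries lay above the unheated ones in both genotypes, and p was 0.1 in a 2-sided exact permutation test, which cannot go lower with 3 libraries a group. BraAnng003400.3.5C alone held 61.3% of unplaced counts at 37 °C and 0.0234% at 22 °C. Without it the share went from 0.117% ± 0.00994 (SD, n = 3) to 0.0967% ± 0.0122 in wild type (exact permutation p = 0.2) and from 0.133% ± 0.0183 to 0.122% ± 0.00503 in gi (exact permutation p = 0.4).

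Further genes rose by smaller factors. BraAnng001430.3.5C, named after its values were seen for its narrow spread, had 2.47, 3.09 and 2.15 CPM in wild type at 22 °C and 19.2, 23.4 and 27.0 CPM at 37 °C. In gi it had 3.37, 1.71 and 1.83 CPM at 22 °C and 39.4, 30.1 and 27.0 CPM at 37 °C. The heated and unheated libraries were well apart in both genotypes, with log2 changes of 3.17 (SE 0.30) and 3.80 (SE 0.30; edgeR adjusted p = 1.86e-05 and 6.79e-06).

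BraAnng005190.3.5C had 4.28, 7.73 and 4.12 CPM in wild type at 22 °C and 1.02, 83.1 and 80.7 CPM at 37 °C. Replicate 1 of the heated wild type was thus below every unheated library, and the other 2 heated ones were above them all. In gi the gene had 5.52, 8.02 and 7.81 CPM at 22 °C and 168, 79.0 and 62.8 CPM at 37 °C. Its log2 change was 3.35 (SE 1.05, edgeR adjusted p = 0.0294) in wild type and 3.86 (SE 1.07, edgeR adjusted p = 0.0193) in gi. The wild-type call was lost when any 1 library of that contrast other than wild type at 37 °C replicate 1 was left out, and without that replicate the log2 change was 3.93 (edgeR adjusted p = 0.000184). Over all 19 other settings the edgeR or DESeq2 adjusted p in wild type ran from 0.000184 to 0.336. The highest came from the fit with a replicate block within each temperature, whose heat contrast compares fitted levels of replicate 1 and not group means.

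BraAnng005250.3.5C had 0 counts in the 3 gi libraries at 22 °C and 1.85, 1.48 and 0.811 CPM at 37 °C, at least 26.4-fold higher against the floor of 3 counts per library (edgeR adjusted p = 0.00697). In wild type it had 1, 1 and 1 counts at 22 °C and 0, 66 and 23 counts at 37 °C. It was called higher there too (edgeR adjusted p = 0.0161), and the heated library with none was again wild type at 37 °C replicate 1.

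Falls were few. BraAnng004680.3.5C, the 1 unplaced gene lowered in both genotypes, had 3.75, 4.40 and 4.43 CPM in wild type at 22 °C and 1.1, 1.38 and 1.03 CPM at 37 °C. In gi it had 12.9, 5.83 and 3.10 CPM at 22 °C and 2.34, 1.04 and 2.16 CPM at 37 °C. Heated and unheated libraries did not overlap in either genotype, and the log2 changes were -1.84 (SE 0.48) and -1.97 (SE 0.48; edgeR adjusted p = 0.0136 and 0.0102). BraAnng003270.3.5C fell in wild type from 1.83 ± 0.376 CPM (SD, n = 3) to 0.539 ± 0.340 CPM, a log2 change of -1.76 (SE 0.59, edgeR adjusted p = 0.0389). That call was kept in 10 of 19 other settings and was lost when any of wild type at 22 °C replicates 1, 2 and 3, wild type at 37 °C replicates 1 and 2, or gi at 22 °C replicate 2 was left out (adjusted p of 0.0521 to 0.128 there). BraAnng004570.3.5C fell in gi from 6.75 ± 2.45 CPM to 3.01 ± 0.867 CPM, a log2 change of -1.16 (SE 0.34, edgeR adjusted p = 0.0252). It was no longer called without gi at 22 °C replicate 2 or 3, or without gi at 37 °C replicate 1 or 2 (adjusted p of 0.0639 to 0.0960).

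**Figure D4:**
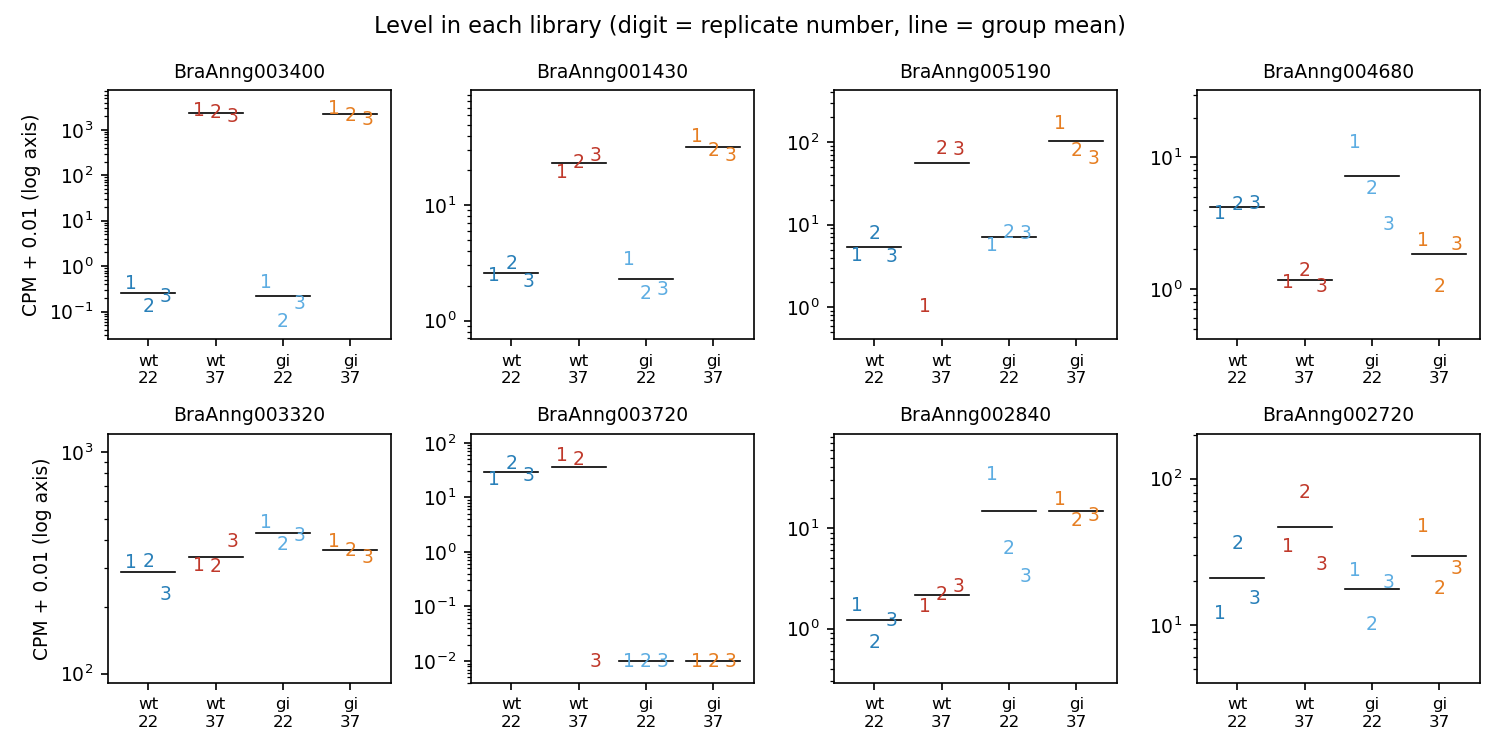
CPM + 0.01 on a log axis (y axis) in each library of the 4 groups (x axis, genotype and temperature in °C) for 8 unplaced genes; each digit is a library by its replicate number, and each line is the group mean. BraAnng003400 rises in all 6 heated libraries, BraAnng005190 in 5 of 6, BraAnng003720 is read in 5 wild-type libraries and in no other, and BraAnng002840 is higher in gi.

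The genotype contrasts compare gi with wild type at each temperature. At 22 °C the edgeR fit without a replicate block called 0 unplaced genes higher or lower. Over all tested genes, it called 0.451% higher and 0.562% lower in gi. At 37 °C it again called 0, where 1.29% of all genes were higher and 1.40% lower. With the replicate number as a block within each temperature, 1 unplaced gene, BraAnng003720.3.5C, was called lower in gi at both temperatures (edgeR adjusted p = 0.0454 and 0.0289). The share of all tested genes called by that blocked fit is not given here, so this count has no background to be read against. An unadjusted p under 0.05 was found for 18 unplaced genes (16.7%) at 22 °C, against 15.1% of all genes, and for 10 (9.26%) at 37 °C, against 20.4%. DESeq2 called 6 higher and 2 lower at 22 °C, against 2.41% and 3.02% of all genes. At 37 °C DESeq2 called 3 higher and 3 lower, against 5.06% and 5.15%. For placed genes of the same level edgeR called 0.339% higher and 0.733% lower at 22 °C, and 1.12% and 1.05% at 37 °C. The median log2 difference was -0.15 at 22 °C and 0.10 at 37 °C, and -0.02 for all genes at both. Leaving out wild type at 22 °C replicate 2 turned the first to 0.21, and leaving out gi at 37 °C replicate 1 turned the second to -0.02.

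Some unplaced genes that were not called had gi and wild-type libraries that did not overlap. At 22 °C this held for 11 of 108 genes higher in gi, where 9.76% of all genes did so, and for 10 lower in gi, where 10.7% did. Among the 10 was BraAnng005250.3.5C, with 1 count in each unheated wild-type library and 0 in unheated gi. At 37 °C it held for 15 genes higher in gi, against 15.3% of all genes, and for 5 lower in gi, against 15.3%. At either temperature alone these were near or below the shares of all genes. At both temperatures 7 genes were higher and 2 lower in gi without overlap, where 3.32% and 3.07% of all genes were.

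BraAnng003720.3.5C differed most between genotypes. It had 21.4, 40.9 and 24.8 CPM in wild type at 22 °C and 57.9, 50.1 and 0 CPM at 37 °C, and it had 0 counts in all 6 gi libraries. The gene was therefore read in 5 of 6 wild-type libraries, with wild type at 37 °C replicate 3 as the exception. Against the floor of 3 counts per library it was at least 555-fold lower in gi at 22 °C and at least 440-fold lower at 37 °C. EdgeR did not call it (adjusted p = 0.127 and 0.0759). It was called without wild type at 37 °C replicate 3 (edgeR adjusted p = 0.00136 and 0.00119), with the replicate number as a block within each temperature (edgeR adjusted p = 0.0454 and 0.0289), and by DESeq2 (adjusted p = 0.00128 and 0.00121). Over all other settings the adjusted p ran from 0.00128 to 0.332 at 22 °C and from 0.00119 to 0.202 at 37 °C.

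BraAnng002840.3.5C came nearest to a call among genes higher in gi. It had 1.69, 0.715 and 1.21 CPM in unheated wild type and 34.2, 6.26 and 3.28 CPM in unheated gi. The heated libraries had 1.65, 2.18 and 2.60 CPM for wild type and 19.3, 11.7 and 13.4 CPM for gi. Each gi library was above each wild-type library at both temperatures, and gi at 22 °C replicate 1 was far above the other 2 of its group. The log2 differences were 3.6 (SE 0.76, edgeR adjusted p = 0.0580) and 2.79 (SE 0.74, edgeR adjusted p = 0.0711). At 37 °C it was called in 4 of 19 other settings (adjusted p from 0.00181 to 0.196) and at 22 °C in 2 (from 2.80e-05 to 0.273). Leaving out gi at 22 °C replicate 3 gave a call at both temperatures (edgeR adjusted p = 0.0220 and 0.0394), and leaving out gi at 22 °C replicate 1 gave one at 37 °C (0.00760) while taking the log2 difference at 22 °C to 1.99.

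**Figure D5:**
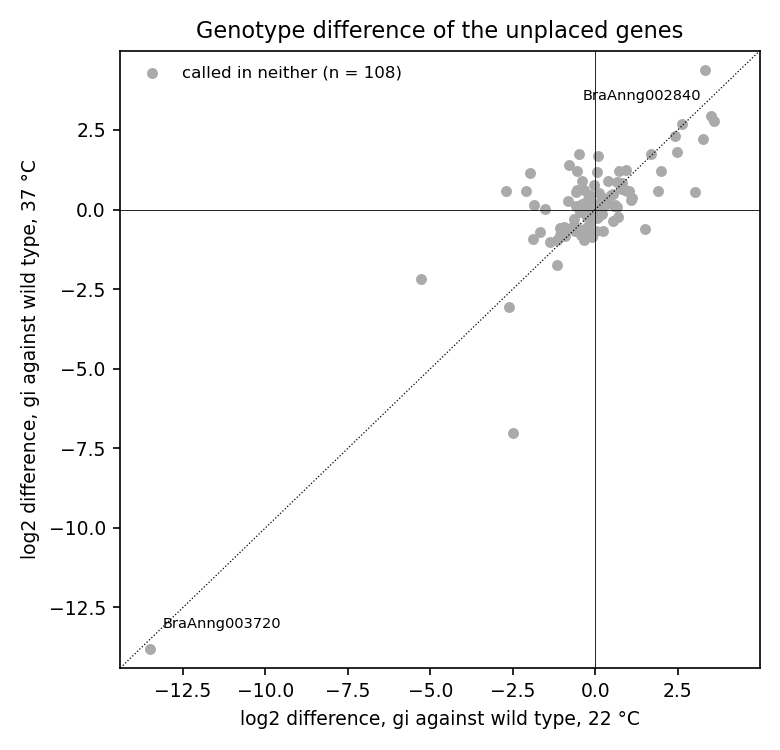
Log2 difference of gi against wild type at 22 °C (x axis) and at 37 °C (y axis) for the 108 unplaced genes, with a dotted line for equal differences. None was called by the edgeR fit without a replicate block that is plotted here, with all 12 libraries; BraAnng003720, whose fitted values rest on groups with 0 counts, lies far from the rest at -13.49 and -13.80, and BraAnng002840 lies at 3.6 and 2.79.

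The interaction sets the heat response of gi against that of wild type. EdgeR called 0 unplaced genes in either direction, where 0.0693% of all tested genes had a higher and 0.0485% a lower response in gi. DESeq2 also called 0, where it called 0.96% of all tested genes higher and 0.842% lower. An unadjusted p under 0.05 was found for 1 unplaced gene (0.926%), against 10.2% of all tested genes and 8.40% of placed genes of the same level. The median absolute interaction log2 was 0.40 for unplaced genes and 0.64 for placed genes of the same level. The 1 gene was BraAnng003780.3.5C, which was at 0.258 ± 0.125 CPM (SD, n = 3) in unheated and 0.141 ± 0.0556 CPM in heated wild type, against 0.0639 ± 0.0403 and 0.319 ± 0.192 CPM for gi. Its interaction log2 was 3.14 (SE 1.03, edgeR adjusted p = 0.360; 0.234 to 0.633 over the other settings, of which DESeq2 gave none). In the other direction the smallest adjusted p was that of BraAnng003350.3.5C, where heat took wild type from 0.536 ± 0.177 to 3.14 ± 0.201 CPM, and gi from 2.00 ± 1.25 to 4.74 ± 0.494 CPM (interaction log2 -1.30, SE 0.66, edgeR adjusted p = 0.536; 0.301 to 0.857 over the other settings). Without gi at 22 °C replicate 1, this gene was called higher in gi at 22 °C (log2 difference 2.30, edgeR adjusted p = 0.0245).

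Absence in single libraries linked some unplaced genes with placed ones. With under 0.1 CPM taken as absent and at least 1 CPM as present, 2 unplaced genes (1.85%) were absent from some libraries and present in all the rest, as were 276 of all tested genes (0.957%). BraAnng003720.3.5C, given above, was absent from 7 libraries, and 4 placed genes had the same pattern, 2 on A04 and 2 on A09. BraAnng002210.3.5C was absent from wild type at 37 °C replicate 3 alone. Its levels were 9.21, 7.48 and 4.50 CPM in wild type at 22 °C, 5.57, 4.82 and 0 CPM at 37 °C, 5.87, 5.42 and 4.92 CPM in gi at 22 °C, and 8.28, 5.79 and 5.38 CPM in gi at 37 °C. The same pattern was found for 33 placed genes, of which 17 lay on A08, 11 on A01, 4 on A09 and 1 on A05 by their IDs. A08 holds 7.68% and A01 holds 9.92% of all tested genes.

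Deviations from the group means tied other unplaced genes to each other or to a chromosome. The genes and the limit of r above 0.9 were chosen after the data were seen, each r is over 12 libraries that share depth and preparation, and it is a description. BraAnng005190.3.5C, low in wild type at 37 °C replicate 1, had such an r with 62 placed genes, of which 50 (80.6%) lay on A03 and 7 (11.3%) on A04. Those chromosomes hold 14.7% and 6.71% of the tested genes. Of the 50, 49 lay among the 769 tested A03 genes from BraA03g001600.3.5C to BraA03g012350.3.5C. In wild type at 37 °C replicate 1, 47 of the 50 and all 7 on A04 were over 2-fold below both other libraries of the group. These r therefore rest in large part on that 1 library. The 2 unplaced genes with such an r were BraAnng005250.3.5C and BraAnng005240.3.5C. BraAnng005240.3.5C had 0.0290, 2.30 and 1.09 CPM in the heated wild type and 1.34, 1.32 and 1.20 CPM in the heated gi libraries. Of the 8 tested unplaced genes from BraAnng005180.3.5C to BraAnng005260.3.5C, 7 were lowest in replicate 1 among the heated wild-type libraries. This held for 29.6% of all unplaced genes and 28.7% of placed genes. The run of IDs was drawn around BraAnng005190.3.5C, BraAnng005240.3.5C and BraAnng005250.3.5C after their low values there were seen. Those genes are among the 7, so the count is not independent of that choice. BraAnng003720.3.5C had an r above 0.9 with 190 placed genes, 66 on A08, 58 on A01 and the rest on the other chromosomes. Its r with BraAnng002210.3.5C was 0.985. Both unplaced genes had 0 counts in wild type at 37 °C replicate 3, and how far these r rest on that library was not tested.

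BraAnng002720.3.5C and BraAnng002800.3.5C moved almost as one, with r = 0.996. The first had 12, 36.1 and 15.2 CPM in wild type at 22 °C, 34.4, 80.7 and 25.8 CPM at 37 °C, 23.5, 10.1 and 19.6 CPM in gi at 22 °C, and 47.0, 17.9 and 24.2 CPM in gi at 37 °C. The second had 5.25, 16 and 6.62, 15, 34.2 and 10.6, 10.2, 4.36 and 8.79, and 18.9, 8.21 and 9.61 CPM in the same order. Replicate 2 was the highest in both wild-type groups and the lowest in both gi groups for both genes. With BraAnng002720.3.5C, 7 unplaced and 4 placed genes had an r above 0.9, among them BraAnng000580.3.5C, BraAnng000620.3.5C and BraAnng000630.3.5C at 0.964 to 0.967. BraAnng001470.3.5C, also of this set at r = 0.939, was called higher by heat in both genotypes (log2 changes of 1.44 and 1.79), while BraAnng002720.3.5C was not (1.15, SE 0.56, and 0.74, SE 0.56; edgeR adjusted p = 0.135 and 0.346).

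BraAnng002880.3.5C was among the genes far above their group in gi at 22 °C replicate 1. It had 3.66, 2.13 and 0.540 CPM in unheated wild type and 60.3, 6.04 and 4.95 CPM in unheated gi. After heat it had 4.38, 2.24 and 0.482 CPM in wild type, against 15.8, 13.1 and 26.3 CPM for gi. Each gi library was above each wild-type one, with log2 differences of 3.5 (SE 1.09) and 2.95 (SE 1.08) and no call (edgeR adjusted p = 0.179 and 0.159). BraAnng005010.3.5C followed it within groups (r = 0.904) but went the other way between genotypes, with 6.28 ± 3.88 CPM (SD, n = 3) for wild type against 1.02 ± 1.13 CPM for gi at 22 °C, and 4.98 ± 3.51 and 0.586 ± 0.643 CPM at 37 °C. Its differences of -2.62 (SE 0.98) and -3.07 (SE 1.02) were not called either (edgeR adjusted p = 0.25 and 0.126). With BraAnng002880.3.5C, 31 placed genes spread over A01 to A10 had an r above 0.9.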

How the data were processed

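RNA was taken from whole seedlings and made into libraries with a stranded mRNA kit, per the labels' protocols. The authors deposited raw counts of whole reads per gene, 1 table per library, and the submitters' processing notes list TopHat2, HTSeq, FastQC and edgeR, with no version. The sources used here give neither genome build nor annotation release nor strand setting. Each table ends in 5 rows of reads not counted to any gene, which held 8.37% to 10.1% of reads (those not aligned aside) and stayed out of all totals.

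The analysis used edgeR 4.0.16 under R 4.3.3: filterByExpr (minimum count 10, minimum total 15), TMM scaling, and 1 robust quasi-likelihood fit of 4 group means to all 12 libraries. P-values were adjusted by Benjamini-Hochberg over all 28846 tested genes, and genes under 0.05 were called. SEs come from the fold change and its F statistic. The fit was checked on simulated data. DESeq2 1.42.0, total counts, no filter, replicate blocks, fits of 2 groups and leaving out each library were tried as alternatives. Replicates of a group differed by more than sampling noise (chi-square per degree of freedom of 17.5 to 416) but may be technical, since the labels do not say what separates them. Floors cover counting error only.

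Replicate numbers come from the labels. Deviations of same-numbered gi and wild-type libraries correlated at 0.145 to 0.285 at 22 °C, against -0.228 to 0.038 for different numbers. At 37 °C the ranges were 0.152 to 0.429 and -0.374 to 0.256, which overlap. The numbers may pair these libraries on that ground, which is weaker at 37 °C. Over the unplaced genes alone, same-numbered libraries gave 0.122, -0.181 and 0.238 at 22 °C and 0.038, 0.082 and -0.075 at 37 °C. The main fit used no replicate block, since the labels do not say what the numbers mark. Its genotype contrasts take no account of such a pairing, and the blocked fit is given beside them. Between temperatures, same-numbered wild-type libraries correlated at 0.0930 to 0.174, against -0.23 to 0.096 for different numbers. In gi the ranges were -0.323 to 0.262 and -0.454 to 0.438. The numbers were not taken to pair libraries between temperatures, though the wild-type ranges overlap only slightly.

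Genes named in the text were, per contrast, up to 2 called genes each way with the largest log2 change and at least 1 CPM in the higher group (or the smallest adjusted p where none was called), the 5 with the most reads, and those with both states of absence and presence. Others are said to be chosen after their values were seen, or stand in the last 3 paragraphs of the results. The members and rules were chosen with earlier results of these data known. Pathway lists were not analysed here, because 0 of 47249 IDs matched the gene table of 51589 genes.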

Additional observations from a re-analysis of the deposited data

How the results depend on the processing

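The scaling, the replicate block and single libraries bore on these results, and the causes were not tested. Minimum counts of 5 and 20 let 137 and 85 unplaced genes pass in place of 108. With total counts, heat raised 10 and lowered 21 genes in wild type (median -0.64) and 13 and 11 in gi (median -0.14), and the median interaction was 0.37. A replicate block within each temperature called 1 gene lower in gi at each temperature, BraAnng003720.3.5C. The heat contrasts of that fit set the fitted level of replicate 1 at 37 °C against that at 22 °C, not the group means. They gave 12 and 1 in wild type and 11 and 0 in gi, and cannot show what blocking does to the heat calls. They count among the other settings given for named genes. The numbers were not taken to pair libraries between temperatures. A single replicate block over all libraries gave 19 and 2 for heat in wild type, 23 and 3 in gi, and 0 for genotype. DESeq2 called 6 higher and 2 lower in gi at 22 °C and 3 and 3 at 37 °C, and fits of 2 groups called 1 lower at 22 °C and 1 higher at 37 °C. Shares of all tested genes called under the replicate blocks, the fits of 2 groups and the leave-out fits are not given here. Without BraAnng003400.3.5C the summed share of counts changed by heat by -0.0207 percentage points in wild type and -0.0104 in gi.

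Leaving out 1 library at a time gave 15 to 23 genes raised and 2 to 4 lowered by heat in wild type (median 0.21 to 0.52), and 14 to 26 raised and 1 to 5 lowered in gi (median 0.20 to 0.89). It gave 0 to 1 called each way between genotypes at either temperature, with medians of -0.38 to 0.21 at 22 °C and -0.02 to 0.17 at 37 °C, and 0 to 0 for the interaction. Of the tries on named genes, 224 kept their call or lack of one, 26 lost a call, 13 gained one and 0 changed sign. Low read numbers limit the 55 genes under 1 CPM, and DESeq2 gave no adjusted p for up to 22 unplaced genes.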

Other observations

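Unplaced genes with neighbouring ID numbers can share a piece of sequence, though the files do not say so. The 108 tested genes formed 42 pairs with adjacent numbers. In wild type, heat called at least 1 gene in 21 of these pairs and both genes the same way in 4 (9.52%), and in gi the numbers were 18 and 4 (9.52%). Among 19610 adjacent pairs of placed genes, both were called the same way in 8.34% in wild type and 6.43% in gi, and at least 1 in 56.6% and 51.4%. Runs of at least 3 adjacent numbers numbered 10 and held 41 unplaced genes. These are counts, with no test, and the placed pairs were not matched for level.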
